A study of Mus musculus with 12 samples.

Results

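The genes described here are the 4 opioid receptors, Oprm1, Oprd1, Oprk1 and Oprl1, and the 4 precursors of their peptides, Penk, Pdyn, Pomc and Pnoc, in sensory neurons that innervate the tongue of the mouse. They were taken by gene symbol from the read count files, and are 8 of 22609 gene symbols. All 8 were measured, and 6 passed the filter on low counts, while Pdyn and Pnoc did not.

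Opioid receptors are G protein-coupled receptors of the Gi and Go class. When an opioid peptide or drug binds them on a sensory neuron, they hold back adenylyl cyclase, close voltage-gated calcium channels, open potassium channels and so reduce transmitter release, which is why peripheral opioid receptors are studied in cancer pain. Oprm1, Oprd1 and Oprk1 encode the mu, delta and kappa receptors, which naloxone blocks, and Oprl1 encodes the related nociceptin receptor, which binds classical opioid drugs poorly. Penk, Pdyn, Pomc and Pnoc encode the precursors of the enkephalins, the dynorphins, beta-endorphin and nociceptin, which prohormone convertases cut at pairs of basic residues.

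The coding sequences show how the precursors differ. In the coding parts of the GENCODE mouse release M1 transcripts (build NCBIM37, the Ensembl name of mm9), Penk held 7 copies of the codons of an enkephalin core, 6 for met-enkephalin and 1 for leu-enkephalin, Pdyn held 3 for leu-enkephalin, and Pomc held 1 for met-enkephalin, the start of beta-endorphin. Pnoc held none of these and 1 nociceptin core, which begins with phenylalanine, whereas the enkephalin core begins with tyrosine. Examples of each precursor are given below in the 5′ to 3′ direction of the coding strand, because the copies explain which peptides each read count stands for, with the core codons in capitals and the flanking codons in lower case.
Penk core 1 (chr4:4061475-4061501, minus strand): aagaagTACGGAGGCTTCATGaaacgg
Penk core 6 (chr4:4061082-4061108, minus strand): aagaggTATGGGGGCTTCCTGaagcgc
Pdyn core 1 (chr2:129513968-129513994, minus strand): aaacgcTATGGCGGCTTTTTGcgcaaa
Pdyn core 2 (chr2:129513860-129513886, minus strand): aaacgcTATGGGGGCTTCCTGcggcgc
Pomc core 1 (chr12:3960367-3960393, plus strand): aagcgtTACGGTGGCTTCATGacctcc
Pnoc core 1 (chr14:66023709-66023735, minus strand): aaaaggTTTGGGGGCTTCACCggggcc
Every codon pair before these cores encodes basic residues, lysine or arginine, where precursors are cut. Penk core 6 and Pdyn core 2 have the same core codons, and differ in the flanking bases.

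The neurons came from adult Balb/c athymic nude mice of 6 to 8 weeks, which lack T cells, and were retro-labeled from the tongue with wheat germ agglutinin (WGA-488), a lectin tracer that axon terminals internalize and transport back to the neuron's soma in the trigeminal ganglion (TG). WGA-positive cells were flow-sorted from dissociated TGs, and SMART-seq2 RNA sequencing was done on 12 libraries, 3 in each of 4 groups. These were males without (MN) and with (MT) a tongue tumor and females without (FN) and with (FT) such a tumor. The tumor groups received 350000 HSC3 cells, a human oral squamous cell carcinoma line, in the tongue, WGA was injected in all groups on day 13 and TGs were taken on day 15. For the normal groups the sample labels state that no cells were given, while the methods state that normal oral keratinocytes were injected, so the normal tongue may or may not have been inoculated. Likewise the WGA solution is 0.5% in the labels and differs in the methods. A normal library pooled 4 ganglia of 2 mice and a tumor library pooled 4 ipsilateral ganglia of 4 mice, so a library is a pool, and the p-values below measure the spread between pools.

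The libraries held 4592891 to 8922011 reads on genes. Levels are given as CPM, the reads of a gene scaled to all reads on genes in its library, or as RPKM, which also divides by exon length, where genes are compared with each other. All 21 sensory neuron markers on the list used passed the filter, with a summed level of 21960 to 26010 CPM in 9 libraries and of 30980, 17590 and 29170 CPM in FN replicate 2, FT replicate 2 and FT replicate 3. These 3 libraries stood apart. In them 56.0%, 68.4% and 52.6% of the alignments tallied in counting were not unique, against 43.0% to 45.5% in the 9 others. The sensory neuron markers went both ways there, with 8, 6 and 8 of the 21 above the range of the 9 libraries and 10, 13 and 8 below it. The nociceptor gene Trpv1 was at 11.4, 5.44 and 35.1 CPM in them and at 150 to 263 CPM in the other 9, while Calca, the CGRP gene, was at 11270, 3242 and 7157 CPM and at 3295 to 4589 CPM in the other 9. Results that rest on these libraries are given with and without them. In bulk samples such as these, fewer cells of a type and less RNA per cell cannot be told apart.

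Oprl1, the nociceptin receptor gene (chr2:181449721-181455690 of mm9, plus strand), had the highest level of the 8 genes. Its CPM was 35.9, 53.0 and 44.1 in MN, 34.7, 36.3 and 39.4 in MT, 32.9, 10.7 and 41.1 in FN, and 32.8, 5.01 and 10.3 in FT, in the order of replicates 1 to 3. The low values are those of the 3 libraries that stood apart, and the other 9 lay between 32.8 and 53.0 CPM in all groups. Per length the MN mean was 11.8 ± 2.29 RPKM (SD, n = 3).

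Oprm1, the mu receptor gene and the target of morphine (chr10:3308332-3588035, minus strand), was the next most abundant receptor. Its CPM was 23.8, 22.4 and 24.4 in MN, 17.6, 19.0 and 19.9 in MT, 12.4, 8.48 and 20.8 in FN, and 26.1, 22.9 and 14.8 in FT. Both male groups were tight, and both female groups were spread over a range of 8.48 to 26.1 CPM, which held all male values. Between its highest and its lowest library Oprm1 differed 3.07-fold, the smallest such ratio among the 7 genes with reads in every library, while Oprl1 differed 10.6-fold. Each Oprm1 value rests on 65 to 213 reads. The gene has 35 transcripts in the annotation, and the MN mean was 2.89 ± 0.126 RPKM over all exons (SD, n = 3) but 8.56 RPKM by the longest transcript, still under the 14.3 RPKM of Oprl1 by the same measure. Its exons share 96 bases with Ipcef1 on the opposite strand, which had 0 to 9 reads in any library.

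Oprd1 and Oprk1, the delta and kappa receptor genes (chr4:131666641-131700401, minus strand, and chr1:5578574-5596212, plus strand), were near the lower end of what could be tested. Oprd1 was at 1.97, 2.91 and 1.95 CPM in MN, 2.39, 1.94 and 1.73 in MT, 1.89, 0.391 and 1.64 in FN, and 1.23, 0.436 and 1.53 in FT. Each value rests on 2 to 26 reads, and no FN library reached the lowest MN value. Oprk1 was at 4.36, 1.79 and 3.44 CPM in MN, 0.880, 3.06 and 4.20 in MT, 1.26, 3.91 and 1.78 in FN, and 1.37, 0.436 and 1.39 in FT, with 2 to 34 reads. MT alone spanned most of the range of the 12 libraries, and Oprk1 overlapped between the groups in each pairwise comparison.

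Among the precursors, Pomc (chr12:3954951-3960618, plus strand), which also encodes adrenocorticotropin and the melanocortins, had the highest level per length. It was at 0.422, 1.23 and 3.44 CPM in MN, 1.51, 1.11 and 1.61 in MT, 1.13, 3.13 and 1.37 in FN, and 1.51, 15.9 and 2.23 in FT. A single library, FT replicate 2, lay far above the rest, with 73 reads, where the other 11 libraries had 3 to 30. Penk (chr4:4060678-4065966, minus strand), the enkephalin precursor, was at 0.281, 1.12 and 1.49 CPM in MN, 0.755, 0.139 and 2.22 in MT, 1.01, 3.13 and 2.60 in FN, and 1.51, 0.436 and 1.53 in FT. These are 1 to 24 reads per library, and every group overlapped every other. The 233 exon bases that Penk shares with A830012C17Rik on the opposite strand belong to a gene that was not analysed here.

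Pdyn, the dynorphin precursor (chr2:129512301-129525580, minus strand), had 0 to 5 reads per library. There were 3, 0 and 0 reads in MN, 3, 5 and 3 in MT, 5, 0 and 1 in FN, and 3, 0 and 1 in FT. A count of 0 allows up to 3 reads, which correspond to 0.336 to 0.653 CPM in these libraries, so no difference in Pdyn was detectable at this depth and no fold is given. Pnoc, the nociceptin precursor (chr14:66019510-66044046, minus strand), had 1 read in each of the 6 male libraries, 1, 4 and 8 reads in FN, and 5, 9 and 18 reads in FT. Every FT library had more Pnoc reads than every male library, although it was too low for the filter.

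Per length, the order of the medians over 12 libraries was Oprl1 (9.40 RPKM), Oprm1 (2.50), Pomc (1.50), Penk (0.800), Oprd1 (0.449), Oprk1 (0.261), Pdyn (0.0883) and Pnoc (0.0738). Oprl1 was above Oprm1 in 11 of 12 libraries, with FT replicate 2 as the exception. Pomc was above Penk in 11 of 12, although their ranges overlapped in MN, MT and FN. The neighbors Oprm1 and Pomc, Penk and Oprd1, and Oprd1 and Oprk1 kept this order in 8 of 12 libraries each, and Pdyn was above Pnoc in 5, so the order within these pairs did not exceed the spread. Over all 22609 symbols, 76.4% had a lower median CPM than Oprl1, 67.9% a lower one than Oprm1, and 41.7% to 43.7% a lower one than Oprd1, Oprk1, Penk or Pomc.

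**Figure D1:**
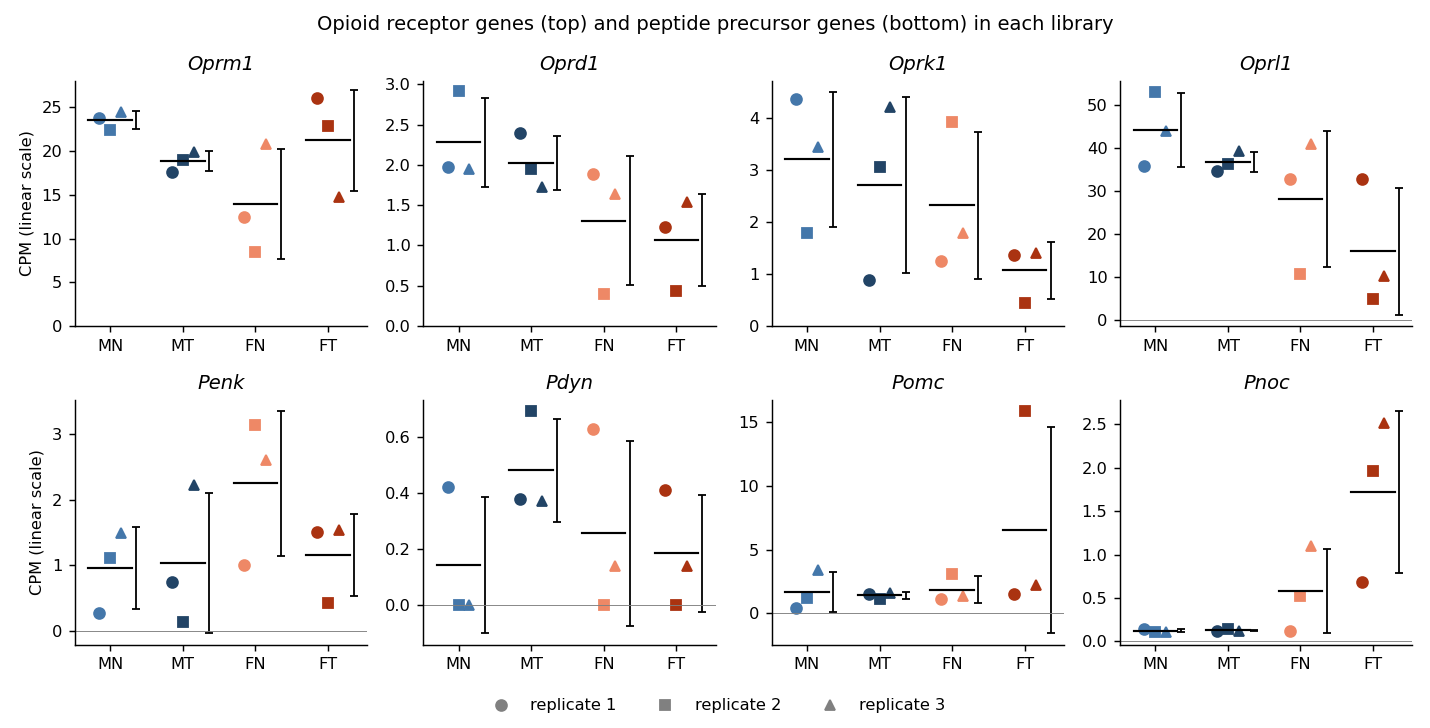
CPM on a linear scale of each opioid receptor gene (top) and peptide precursor gene (bottom) in the 12 libraries, by group and replicate, with the group mean as a horizontal line and ± 1 SD (n = 3) as the bar beside it. Oprm1 is tight in MN and MT and spread in FN and FT, Oprl1 is low in FN replicate 2, FT replicate 2 and FT replicate 3, and the Pomc mean in FT is set by replicate 2 at 15.9 CPM.

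Ratios of reads within a library do not depend on how libraries are scaled to each other. The ratio of Oprl1 to Oprm1 reads was 1.51, 2.37 and 1.80 in MN, 1.97, 1.91 and 1.98 in MT, 2.65, 1.26 and 1.97 in FN, and 1.26, 0.219 and 0.698 in FT. Oprm1 outnumbered Oprl1 in FT replicates 2 and 3 and in no other library. Per length, Oprl1 made up 70.2% to 80.1% of the receptor transcripts in the 9 libraries, and 62.5%, 31.0% and 53.4% in FN replicate 2, FT replicate 2 and FT replicate 3. The kappa receptor gene took 12.6% in FN replicate 2 and 1.06% to 4.69% in the other 11 libraries. Receptor reads outnumbered precursor reads in every library, 12.6-fold to 52.1-fold in the 9 libraries and 3.46-fold, 1.57-fold and 4.37-fold in those that stood apart. These are reads and not levels per length, and the receptor genes have longer exons (3753 to 8156 bases) than the precursor genes (1007 to 2887 bases). Per length the order differed in FT replicate 2, where Pomc was at 15.8 RPKM and Oprm1, the highest receptor gene, at 2.80 RPKM. In FN replicate 2 Pomc was at 3.11 RPKM and Oprl1 at 2.85 RPKM. Pomc gave 86.9% of the precursor reads in FT replicate 2 and 26.3% to 68.2% in the others.

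**Figure D2:**
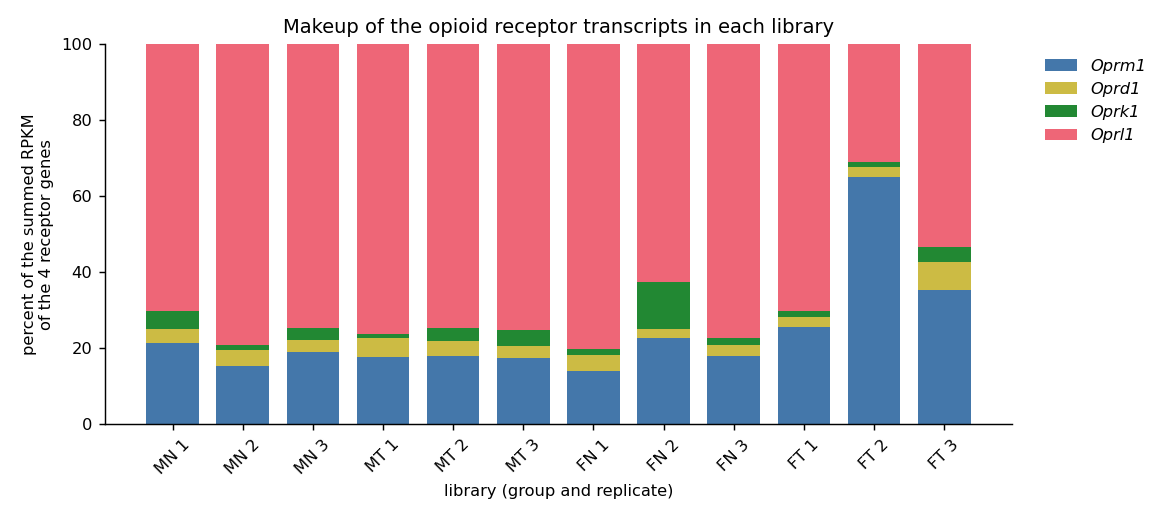
Percent of the summed RPKM of the 4 receptor genes (y axis, from 0 to 100) that each receptor gene contributes, for each of the 12 libraries (x axis). Oprl1 makes up 70.2% to 80.1% of 9 bars and 62.5%, 31.0% and 53.4% in FN replicate 2, FT replicate 2 and FT replicate 3, and Oprm1 exceeds it in FT replicate 2 alone.

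**Figure D3:**
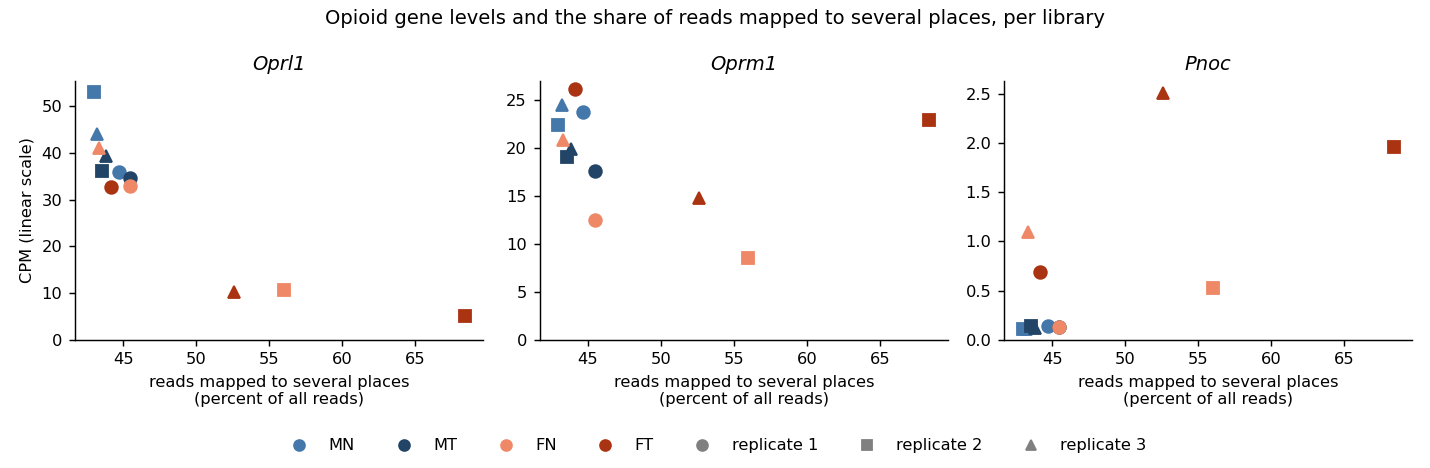
CPM on a linear scale of Oprl1, Oprm1 and Pnoc (y axis) in the 12 libraries, colored by group and shaped by replicate. The x axis, labeled as reads, is the percent of the alignments tallied in counting that were not unique. The 3 libraries over 52% hold the lowest Oprl1 values (5.01 to 10.7 CPM), the Oprm1 values there (8.48 to 22.9 CPM) lie partly among the others, and Pnoc is at 0.522 to 2.51 CPM there and 0.112 to 1.10 CPM elsewhere.

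The comparison of FN with MN asks whether opioid genes differ between the sexes without a tumor. The mean CPM of Oprm1 was 13.9 ± 6.30 in FN and 23.5 ± 1.03 in MN (SD, n = 3), and all FN libraries lay below all MN libraries. Its log2 fold change was -0.70 (SE 0.356, adjusted p = 0.809 in edgeR's quasi-likelihood test with Benjamini-Hochberg adjustment). Oprd1 likewise lay lower in every FN library than in every MN library, with a log2 fold change of -0.77 (SE 0.582, adjusted p = 0.813 by edgeR). Thus 2 of the 6 genes tested did not overlap between FN and MN, where 19.8% of all genes tested did not. Oprl1 (-0.63, SE 0.505), Oprk1 (-0.27, SE 0.671), Penk (1.33, SE 0.825) and Pomc (0.31, SE 0.952) overlapped between the groups. Without FN replicate 2 and FT replicate 2, Oprd1 was at -0.43 (SE 0.435), Oprl1 at -0.32 (SE 0.342), Oprk1 at -1.11 (SE 0.610), Penk at 0.79 (SE 0.820) and Pomc at -0.52 (SE 0.699). In an edgeR fit of only the FN and MN libraries of this set, Oprk1 and Oprm1 had an unadjusted p under 0.05. So did 2679 of the 13156 genes tested there. In the fit of 12 libraries none of the 6 had an adjusted p under 0.05 by edgeR, nor did any gene of the whole table (0.0%), and none had an unadjusted p under 0.05, as 5.57% of all genes did.

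The Oprm1 difference was the only one of the 8 genes to be called in FN versus MN by any tool used. Limma-voom with sample quality weights, which weights down divergent libraries, gave -0.66 (SE 0.179, adjusted p = 0.0338) and called 800 of 13360 genes. DESeq2 called 13 genes and not Oprm1, for which it gave -0.71 (SE 0.361, adjusted p = 0.815). In edgeR fits without FN replicate 2 and FT replicate 2, and without FT replicate 3 as well, it was -0.56 in both (adjusted p = 0.815 and 0.228). Over all 23 settings the adjusted p for Oprm1 in this comparison ranged from 0.0338 to 1.00, and its log2 fold change from -1.03 to -0.54. FN replicate 3, at 20.8 CPM, was close to the lowest MN library at 22.4 CPM, and FN replicate 1 was at 12.4 CPM.

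Markers of other cells differed between the same groups. The 10 satellite glia markers, which all passed the filter, summed to 8538 to 16560 CPM in FN and 4371 to 5261 CPM in MN. The 14 macrophage markers summed to 193 to 443 CPM in FN and 27.3 to 41.8 CPM in MN, and the 10 fibroblast markers, of which 9 passed, to 178 to 426 CPM in FN and 87.3 to 151 CPM in MN. The part of these cells in the Oprm1 and Oprd1 values was not tested.

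In males the tumor was compared with the normal tongue (MT versus MN). Oprm1 was at 18.8 ± 1.15 CPM in MT and 23.5 ± 1.03 CPM in MN (SD, n = 3), without overlap, with a log2 fold change of -0.30 (SE 0.353, adjusted p = 1 by edgeR). It was the only one of the 6 genes tested that did not overlap, against 13.1% of all genes. Fitted on the 2 male groups alone, where the spread of the female libraries does not enter, Oprm1 had an unadjusted p under 0.05 and an adjusted p = 0.707 by edgeR. In that fit 922 of 13322 genes had an unadjusted p under 0.05. Oprl1 (-0.25, SE 0.502), Oprd1 (-0.15, SE 0.567), Oprk1 (-0.23, SE 0.666), Penk (0.10, SE 0.848) and Pomc (-0.26, SE 0.963) overlapped. No opioid gene had an adjusted or an unadjusted p under 0.05 in the fit of 12 libraries, where 0.0% and 0.426% of all genes did, and limma-voom and DESeq2 called none of them among the 47 and 2 genes they called.

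In females the same comparison (FT versus FN) shares the FN libraries with FN versus MN. Oprm1 was at 21.2 ± 5.82 CPM in FT and 13.9 ± 6.30 CPM in FN (SD, n = 3), and the libraries overlapped. Its log2 fold change was 0.73 (SE 0.357, adjusted p = 0.994 by edgeR), and 0.38 (SE 0.291) without FN replicate 2 and FT replicate 2. Without FT replicate 3 as well it was 0.66, in a fit that left FT replicate 1, at 26.1 CPM, alone in its group. Pomc had a log2 fold change of 1.94 (SE 0.946, adjusted p = 0.994 by edgeR), and 0.68 (SE 0.764) without FN replicate 2 and FT replicate 2. Oprk1 (-1.13, SE 0.723), Penk (-0.93, SE 0.830), Oprl1 (-0.77, SE 0.511) and Oprd1 (-0.16, SE 0.616) overlapped too, and 0 of 6 genes were free of overlap, against 2.49% of all genes. Without those libraries Oprk1 was at -0.03 and Penk at -0.14, while Oprl1 stayed at -0.72 (SE 0.380), a value that still held FT replicate 3. Without that library as well, Oprl1 was at -0.17, again with FT replicate 1 alone in its group. None of the 6 had an adjusted p under 0.05 by edgeR, DESeq2 or limma-voom (0.0% of all genes by edgeR), and none had an unadjusted p under 0.05 by edgeR (3.82% of all genes).

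The effect of the tumor itself was compared between the sexes, as the difference of the female and the male log2 fold change. For Oprm1 this difference was 1.04 (SE 0.502, adjusted p = 1 by edgeR), the male value being -0.30 and the female value 0.73. It was 0.68 (SE 0.374) without FN replicate 2 and FT replicate 2, and 0.96 (SE 0.319, adjusted p = 0.934 by edgeR) without FT replicate 3 as well, where FT is a single library. The differences for Pomc (2.20, SE 1.348), Oprk1 (-0.90, SE 0.979), Penk (-1.03, SE 1.19) and Oprl1 (-0.51, SE 0.715) did not pass either. Without FN replicate 2 and FT replicate 2 they were 0.95, 0.19, -0.24 and -0.46, and without FT replicate 3 as well 0.55, 0.09, -0.34 and 0.09, so that Oprk1 and Oprl1 changed sign. Of all genes 0.0% had an adjusted and 1.47% an unadjusted p under 0.05 for this difference. For the tumor effect averaged over the sexes these shares were 0.0% and 1.12%, and none of the 6 opioid genes was among them, with averages from -0.68 for Oprk1 to 0.84 for Pomc. Without FN replicate 2 and FT replicate 2 the averages of Oprk1 and Pomc were -0.13 and 0.21. Without FT replicate 3 as well they were -0.18 and 0.004.

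The sexes were also compared with a tumor present. In FT versus MT, Oprl1 was at 16.0 ± 14.8 CPM in FT and 36.8 ± 2.38 CPM in MT (SD, n = 3), and every FT library lay below every MT library. The log2 fold change was -1.14 (SE 0.513, adjusted p = 0.399 by edgeR). Pomc was at 6.55 ± 8.11 CPM in FT and 1.41 ± 0.262 CPM in MT, with overlap, and its log2 fold change was 2.51 (SE 0.970, adjusted p = 0.347 by edgeR). These 2 of 6 genes met an unadjusted p under 0.05, as 12.1% of all genes did, and none of the 6 met an adjusted p under 0.05, as 0.0% of all genes did. DESeq2, which called 241 genes here, and limma-voom, which called 0, called none of the opioid genes. Oprd1 was lower in every FT than in every MT library (-0.77, SE 0.603), so that 2 of the 6 did not overlap, where 17.6% of all genes did not. Oprk1 (-1.17, SE 0.718), Oprm1 (0.34, SE 0.355) and Penk (0.30, SE 0.856) overlapped. Without FN replicate 2 and FT replicate 2 Oprd1 was at -0.52, Oprk1 at -0.92, Oprm1 at 0.12 and Penk at 0.56.

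The Oprl1 and Pomc values rest on the libraries that stood apart. Without FN replicate 2 and FT replicate 2, Oprl1 was at -0.78 (SE 0.353, adjusted p = 0.219 by edgeR) and Pomc at 0.44 (SE 0.683). Without FT replicate 3 as well, which left FT replicate 1 alone in its group with the spread of the other groups assumed for it, Oprl1 was at -0.23 (SE 0.223) and Pomc at 0.03 (SE 0.890). In FT replicate 1 Oprl1 was at 32.8 CPM and the MT libraries were at 34.7 to 39.4 CPM. Leaving out FT replicate 1 instead gave an Oprl1 value of -2.04 (adjusted p = 0.0388 by edgeR). That fit left only FT replicates 2 and 3, which both stood apart, and 755 of 13606 genes had an adjusted p under 0.05 in it. Pomc is highly expressed in the pituitary, whose markers were read beside it. In FT replicate 2, which holds the Pomc value of 15.9 CPM, 12 pituitary markers summed to 5.44 CPM, of which growth hormone (Gh) gave 4.36 CPM, while Pitx1 and Gnrhr had 0 reads in every library. The summed pituitary markers were highest in MT replicate 3, at 52.9 CPM, where Pomc was at 1.61 CPM, and lay between 0 and 2.24 CPM in the other 10 libraries. The part of pituitary RNA in the Pomc values was not tested.

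With all 12 libraries Pnoc could be tested only without the filter on low counts. Summed over 3 libraries it had 3 reads in MN, 3 in MT, 13 in FN and 32 in FT. The ratio of FT to MT, scaled to library totals, was 13.0 (95% interval 4.07 to 66.4, covering counting error only), that of FT to FN was 2.96 (1.51 to 6.15), and that of FN to MN was 4.68 (1.29 to 25.6). For FT versus MT edgeR with no filter gave an adjusted p = 0.201 and DESeq2 an adjusted p = 0.0662. With any single library other than FT replicate 2 or 3 left out, the filter asks for reads in fewer libraries and Pnoc passed it, with an adjusted p of 0.149 to 0.741 by edgeR, or 0.0363 without FT replicate 1. It passed through the group in which it is high, so these values are a description. In CPM, Pnoc was 0.686 in FT replicate 1, 1.96 in replicate 2 and 2.51 in replicate 3, against 0.112 to 0.141 in the 6 male libraries. Markers of T and B cells were read beside it. In FT replicates 1 to 3 the B cell marker Ms4a1 was at 0, 1.74 and 0.279 CPM, and it was at 0 in the 9 other libraries, and the T cell marker Cd4 was at 0.137, 3.70 and 0 CPM in FT and at 0 to 0.494 CPM in the others, while the T cell marker Cd3e had 0 reads in all 12. The 8 T and B cell markers, of which 1 passed the filter, summed to 3.16 to 8.93 CPM in FT, 4.03 to 5.31 CPM in MT, 3.90 to 6.13 CPM in FN and 3.70 to 5.39 CPM in MN. Their part in the Pnoc reads was not tested.

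**Figure D4:**
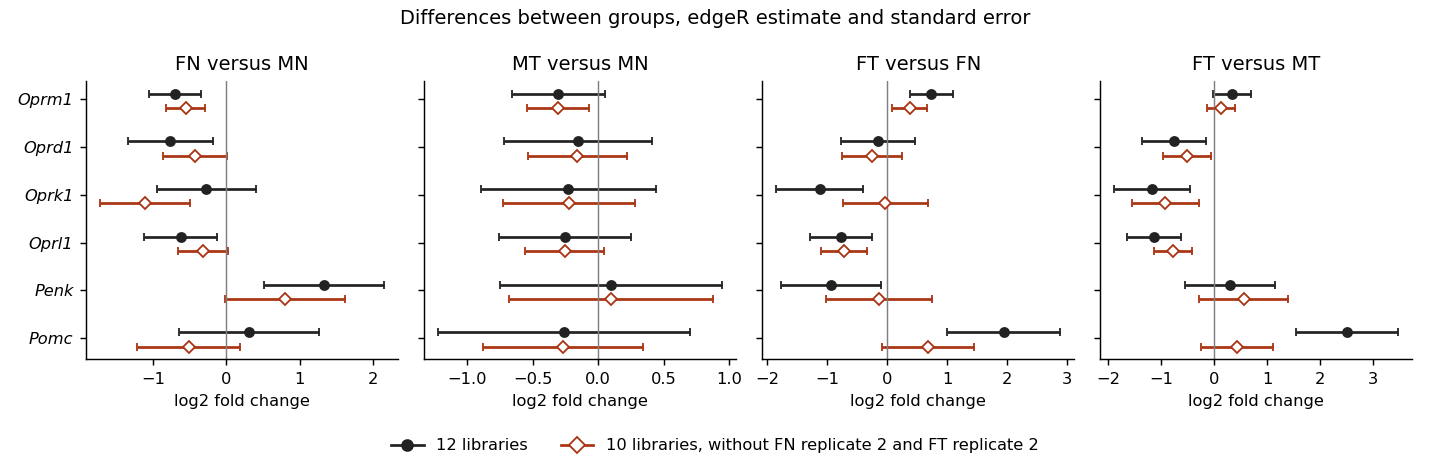
Log2 fold change (x axis) of the 6 opioid genes that passed the filter (y axis) in each pairwise comparison, with ± 1 SE from edgeR, for the fit of 12 libraries (filled circles) and of 10 libraries without FN replicate 2 and FT replicate 2 (open diamonds). Pomc moves from 2.51 to 0.44 in FT versus MT between the fits, while Oprm1 stays below 0 in FN versus MN (-0.70 and -0.56).

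Read against the DEG criteria of the methods (unadjusted p under 0.05, a fold above 1.5, and an average level of more than 5 RPKM in at least 1 group), Oprl1 and Pomc met them in FT versus MT, where 8.17% of all genes tested did. No opioid gene met them in FN versus MN, MT versus MN or FT versus FN, where 3.7%, 0.152% and 2.18% of all genes did. Oprm1, at 1.71 to 2.89 mean RPKM over all exons, could not meet the level in any group, and by its longest transcript it lay at 5.06 to 8.56 RPKM. Pomc met the level only in FT, at 6.50 ± 8.05 RPKM (SD, n = 3), through replicate 2 at 15.8 RPKM.

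The genes that make, remove and answer opioid peptides were read as a list of 47, all of which were measured and 40 of which passed the filter. Among the processing enzymes, the convertase genes Pcsk1 and Pcsk2 were at 65.7 to 113 CPM and 312 to 354 CPM in the 6 male libraries, and Cpe, the carboxypeptidase that trims the cut peptides, was at 1244 to 1382 CPM. Among the enzymes that degrade enkephalins, Dpp3 was at 202 to 227 CPM and Mme, which encodes neprilysin, at 2.81 to 7.09 CPM in the male libraries, while Anpep was too low to test. Of the G protein subunits that opioid receptors use, Gnao1 was at 601 to 731 CPM there, and Rgs4, a brake on Gi and Go signaling, was at 1952 to 2521 CPM. The potassium channel genes Kcnj5 and Kcnj6 and the melanocortin receptor genes Mc1r, Mc2r, Mc3r and Mc5r did not pass the filter either. Mc4r, a receptor for Pomc-derived peptides, passed at 1.41 to 6.29 CPM in the male libraries.

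None of the listed genes had an adjusted p under 0.05 by edgeR in any comparison. In FN versus MN, 1 of 37 (2.7%, beside 5.57% of all genes tested) had an unadjusted p under 0.05, and it was lower. This was Kcnj3, a subunit of the potassium channel that opioid receptors open, at 0.783 to 2.51 CPM in FN and 3.81 to 4.92 CPM in MN. Its log2 fold change was -1.18 (SE 0.472, adjusted p = 0.809 by edgeR), and -0.91 without FN replicate 2 and FT replicate 2. In MT versus MN the count was 0 of 40, beside 0.426% of all genes, and Kcnj3, at 2.39 to 3.06 CPM in MT, again had the lowest p (-0.64, SE 0.462, adjusted p = 1 by edgeR). These comparisons share the MN libraries, and the Kcnj3 level of all 3 MN libraries lay above that of all other libraries.

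In FT versus FN, 3 of 40 (7.5%, beside 3.82% of all genes tested) had an unadjusted p under 0.05, all higher. They were Pcsk2 (1.72, SE 0.622), Adcy1, an adenylyl cyclase (1.58, SE 0.702), and Cxcr7, now Ackr3, a receptor that takes up opioid peptides without signaling through G proteins (1.54, SE 0.690). In each the highest value was that of FT replicate 2, with 1421 CPM for Pcsk2, 57.7 CPM for Adcy1 and 27.2 CPM for Cxcr7. Without FN replicate 2 and FT replicate 2 the values were -0.08, -0.14 and -0.04. In FT versus MT, 3 of 37 were higher and 1 was lower at an unadjusted p under 0.05, together 10.8% beside 12.1% of all genes tested. Cxcr7 (2.01, SE 0.703) and Gnai2, a Gi subunit (1.74, SE 0.663), were at 0.86 and 0.50 without those 2 libraries, and Cacna1b, the N-type calcium channel that opioids inhibit, went from -0.80 (SE 0.369) to -0.61. The third gene that was higher was Adcy1, at 1.50, with 57.7 CPM in FT replicate 2. In FT replicates 1 and 3 Adcy1 was at 7.82 and 8.51 CPM, and in MT at 8.20 to 14.0 CPM. The median log2 fold change of the listed genes was -0.16 in FN versus MN, -0.03 in MT versus MN, -0.04 in FT versus FN and -0.19 in FT versus MT, beside 0.07, 0.01, -0.06 and 0.07 over all genes tested.

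**Figure D5:**
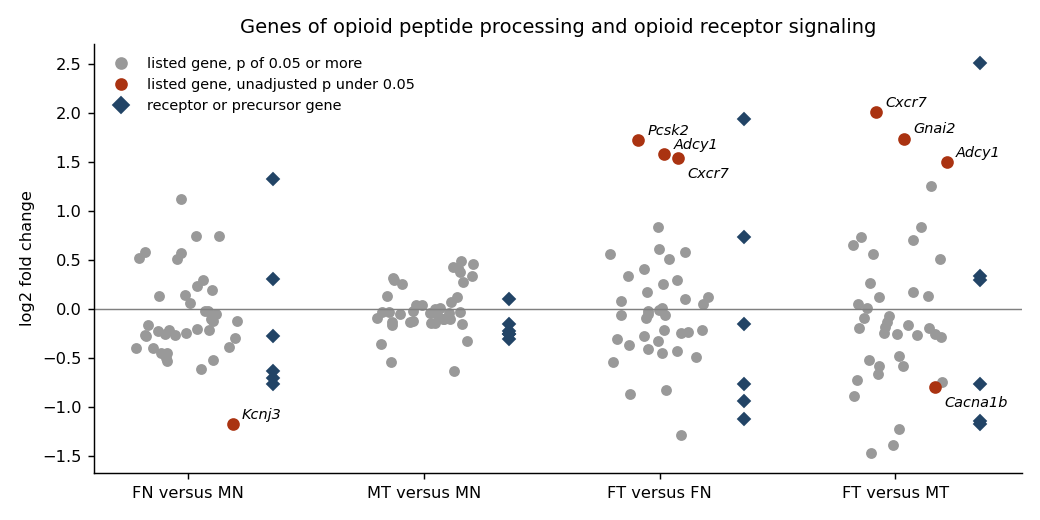
Log2 fold change (y axis) of the listed genes of opioid peptide processing and receptor signaling (circles, spread sideways only for legibility) and of the 6 opioid receptor and precursor genes tested (diamonds) in each pairwise comparison (x axis). Genes with an unadjusted p under 0.05 are in red and named, 3 listed genes on X are drawn but were not tested between the sexes, and MT versus MN has none, with the listed genes lying between -0.64 and 0.49.

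The 6 genes tested did not all vary together. Across the 12 libraries the Spearman rho of log2 CPM between Oprm1 and Oprl1 was 0.14. The highest value for any pair of the 6 genes was 0.64, for Oprd1 and Oprl1, which was 0.37 over the 9 libraries. The lowest were -0.55 for Oprd1 and Pomc and -0.53 for Oprd1 and Penk, which were -0.13 and -0.63 over the 9 libraries. Penk and Pomc were at 0.42, and at 0.53 over the 9 libraries. Low read counts limit the values that involve Oprd1, Oprk1, Penk or Pomc. Of all genes tested, those whose levels ran most like Oprd1 were Nrg1 (rho 0.99, and 0.97 over the 9 libraries), which encodes neuregulin 1, Lmln (0.97) and Entpd3 (0.97). For Oprl1 they were Ube2n (0.97), Psd2 (0.97) and Susd5 (0.97), for Oprm1 Zmynd8 (0.92), Zfp316 (0.92) and Cul9 (0.91), and for Oprk1 Ipo8 (0.92), Sidt2 (0.82) and Zfp275 (0.81). For the precursors they were Ankrd16 (0.91), Dennd2a (0.90) and H2-Q10 (0.89) for Penk, and 1700054N08Rik (0.95), Gm12942 (0.93) and Mtag2 (0.90) for Pomc. These are descriptions over 12 libraries that share depth, sort and the divergence of 3 libraries, chosen as the highest of all genes tested.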

How the data were processed

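The authors sequenced SMART-seq2 libraries of sorted WGA-positive TG neurons as single reads of 50 bases, aligned them to mm9 with TopHat2 and counted reads on genes with HTSeq, after CASAVA 1.8.2 per the submitters' processing notes. The annotation, the strand setting and the other versions are not given in the sources used here, so reads of genes that overlap on opposite strands may not be told apart. The deposited values are whole read counts per gene symbol, without normalization. Between 76.3% and 88.8% of 30825251 to 42495642 tallied alignments per library named no gene and entered neither library sizes nor tests. These totals are tallies of alignments and not the numbers of reads sequenced.

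CPM were computed over the reads on genes. RPKM were computed from the union of a gene's exons in GENCODE M1 (95.7% of symbols matched). Groups were taken from the sample titles. The model of the counts was edgeR 4.0.16 under R 4.3.3 (TMM, filterByExpr with a minimum count of 10 and a minimum total of 15, quasi-likelihood test) over 12 libraries in 4 groups, with Benjamini-Hochberg adjustment over all genes tested, 13835, or 13360 without X and Y genes in FN versus MN and FT versus MT. There were 6 contrasts. The SE of a log2 fold change was derived from its F statistic. Chi-square tests of the counts within groups found no pair of identical libraries. Alternatives were DESeq2 1.42.0, limma-voom of limma 3.58.1, other scalings, no filter, a replicate block, the 2 groups alone, and fewer libraries. The fits were tested on simulated data. Ratios of low counts carry an exact binomial 95% interval.

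The 8 genes, the 47 genes of opioid signaling and the 10 marker lists were chosen with earlier results of these data known. Pathway genes named with a test are the 3 with the lowest p per comparison, and Adcy1 in FT versus MT and the other levels given were chosen after their values were seen. Genes of like pattern are the 3 with the highest Spearman rho of log2 CPM (prior count 2). The values of 1 marker gene are not reported here. Marker genes were also summed for Schwann cells, neutrophils, endothelial cells and pericytes. The 9-library ranges and FN replicate 2, FT replicate 2 and FT replicate 3 were, in CPM, 1569 to 2457 and 2247, 1240 and 3812 for Schwann cells, 0.562 to 117 and 78.2, 195 and 72.4 for neutrophils, 359 to 1232 and 585, 168 and 858 for endothelial cells, and 106 to 308 and 146, 126 and 253 for pericytes. Tables and plots were made in Python 3.11.15 (pandas 2.3.3, scipy 1.17.1, matplotlib 3.10.9, numpy 2.4.6).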

Additional observations from a re-analysis of the deposited data

How the results depend on the processing

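Over 24 log2 fold changes (6 genes in the pairwise comparisons) and 22 alternatives, 504 of 526 values kept their direction and their side of an adjusted p of 0.05, 2 crossed it and 20 changed sign. The tally includes fits that left out a library of a group outside the comparison, which hardly moved the value. Oprl1 in MT versus MN stayed at -0.25 whichever single female library was left out. None of the 24 passed in the fit of 12 libraries, so the tally is not a measure of how firm they are. In FN versus MN, limma-voom called 1 opioid gene, Oprm1, and edgeR 0. Under the DEG criteria, FT versus FN had 1 gene with DESeq2 and 1 with no filter, and 0 to 2 when 1 library was left out. In FT versus MT the criteria were met by 1 gene with library totals alone, 1 with only the 2 groups, 1 with the replicate block, 1 with 10 libraries, and by 0 with limma-voom, 0 with 9 libraries and 0 with 10 libraries of the 2 groups, and by 0 to 2 when 1 library was left out. Over all genes edgeR called 0 in every comparison, DESeq2 13, 2, 0 and 241 in the pairwise comparisons (normal groups between the sexes, tumor in males, tumor in females, tumor groups between the sexes), limma-voom 800, 47, 0 and 0, edgeR on the 9 libraries 54, 3, 0 and 1, and edgeR on 2 groups of the 10 libraries 728, 6, 0 and 0. Without FT replicate 1, which leaves only FT replicates 2 and 3, edgeR called 755 of 13606 genes in FT versus MT. Of the 7 opioid genes tested there, the adjusted calls were 2, Oprl1 and Pnoc. Pnoc passed the filter through FT, where it is high, so its value is a description. Over all single libraries left out the adjusted calls in FT versus MT were 0 to 2. Sign changes concerned Pomc in FN versus MN (-0.17 with limma-voom, -0.52 with 10 libraries, -0.51 with 9, -0.52 with 10 in 2 groups), Penk in MT versus MN (-1.20 with limma-voom) and Oprk1 in FT versus FN (0.0016 with 10 libraries in 2 groups). Leaving out single libraries gave, in FN versus MN, -1.10 to 0.071 for Oprk1 and -0.49 to 1.30 for Pomc, in MT versus MN, -0.32 to 0.075 for Oprd1, -0.66 to 0.18 for Oprk1, -1.03 to 0.59 for Penk and -0.70 to 0.74 for Pomc, in FT versus FN, -0.51 to 0.15 for Oprd1 and -0.12 to 2.72 for Pomc, and in FT versus MT, -0.21 to 1.42 for Penk. The cause was not tested.

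The replicate numbers share only a number: 5 of 18 same-numbered pairs correlated over 0.1 and 0 libraries were closest to their own number. With the replicate block Pomc in FT versus MT was 1.79 (adjusted p = 0.427 by edgeR). Scaling by library totals put the median of all genes in FT versus MT at -0.07, from 0.07 with TMM, and relative to those medians Oprl1 was at -1.12 and -1.21. Penk could not be tested in the fit of the 2 male groups. Low counts, with medians of 1 to 14.5 reads per library, limit Oprd1, Oprk1, Penk, Pdyn, Pomc and Pnoc.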
